A study of Mus musculus with 41 samples.

Results

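The data described here are single-cell RNA profiles of innate and other non-T, non-B cells from 2 parts of the healthy mouse small intestine, the lamina propria (LP) and the Peyer's patches (PP). Members are control cells of 3 LP libraries and 3 PP libraries that hold 0 UMIs (unique molecular identifiers, 1 per captured RNA molecule) of Cd3d, Cd3e and Trac in sum and 0 UMIs of Cd79a, genes of the T cell and B cell receptor complexes. The rule kept 11692 of the 14616 cells of these 6 libraries, against 58067 cells in the whole series. The LP libraries LP1, LP2 and LP3 gave 1724, 1886 and 1828 such cells, and the PP libraries PP1, PP2 and PP3 gave 2203, 1994 and 2057. All mice were female wild-type BALB/cJ animals of 10 weeks without treatment. The LP libraries carry the label nonTB, which the labels do not define, and their titles also read nonPP. How the PP cells were sorted, and how many animals went into a library, is not stated. A comparison near the end uses 6 libraries of the same run dates from mice with ovalbumin-induced food allergy, 3 from LP and 3 from PP.

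The lamina propria is the connective tissue under the gut epithelium, where macrophages, dendritic cells (DCs), innate lymphoid cells (ILCs) and plasma cells reside. Peyer's patches are lymphoid follicles in the wall of the small intestine, covered by an epithelium that passes antigens to phagocytes in the subepithelial dome, and organised by stromal cells that secrete homing chemokines. ILC2s, ILC3s and natural killer (NK) cells or ILC1s are lymphocytes without rearranged antigen receptors, known for type 2 cytokines, IL-22 and IL-17, and interferon-gamma. Type 1 conventional DCs (cDC1) cross-present antigen, type 2 conventional DCs (cDC2) prime helper T cells, and plasmacytoid DCs (pDCs) make type I interferon.

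The rule kept 75.4%, 75.0% and 74.1% of the cells of LP1, LP2 and LP3, and 87.5%, 86.5% and 81.5% of the cells of PP1, PP2 and PP3. In the PP control libraries of other run dates it kept 3.93 to 11.6%, so the 3 PP libraries used here stand apart from the rest of the PP controls in their makeup. The median kept cell had 1619 to 2508 UMIs in LP and 2852 to 3397 UMIs in PP, and the libraries summed to 4049107 to 6980984 UMIs in LP and 6850919 to 9201824 UMIs in PP. Cells removed by a Cd79a UMI made up 21.8 to 24.1% of LP cells and 5.12 to 10.5% of PP cells. Between 2 and 10 cell barcodes were shared by any pair of the 6 libraries. LP1 and LP2 share a run date, as do PP1 and PP2, while LP3 and PP3 were run on other dates. Each run date holds 1 tissue only, so tissue and run date cannot be told apart and no value within a date can be given. The chi-square per degree of freedom between library sums was 1.74 for LP1 with LP2 and 4.28 for PP1 with PP2. It was 20.3 and 23.4 between LP3 and the other LP libraries, 43.0 and 46.4 between PP3 and the other PP libraries, and 38.7 to 67.2 between libraries of different tissues. Libraries of 1 tissue from different dates thus differ far more than libraries of 1 date, and summing the libraries of a date to 1 value, which leaves 2 against 2, ended most gene calls below.

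Which cell classes make up the innate cells of each tissue was compared first. LP held more macrophage-like and cDC1-like cells, and PP held more NK or ILC1-like, mature DC-like, endothelial and epithelial cells. With the naming rule used, ILC3-like cells were the most frequent class in both tissues, at 35.7 to 47.1% in LP and 43.1 to 49.8% in PP. Classes are Leiden clusters named from marker genes and carry the ending "-like", since the names were rebuilt from the counts. Of 15 classes 9 passed the test on cell numbers (edgeR's quasi-likelihood test, Benjamini-Hochberg adjusted p under 0.05), while no class passed an exact permutation test of shares, which cannot go below p = 0.10 with 3 against 3 libraries.

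**Figure D1:**
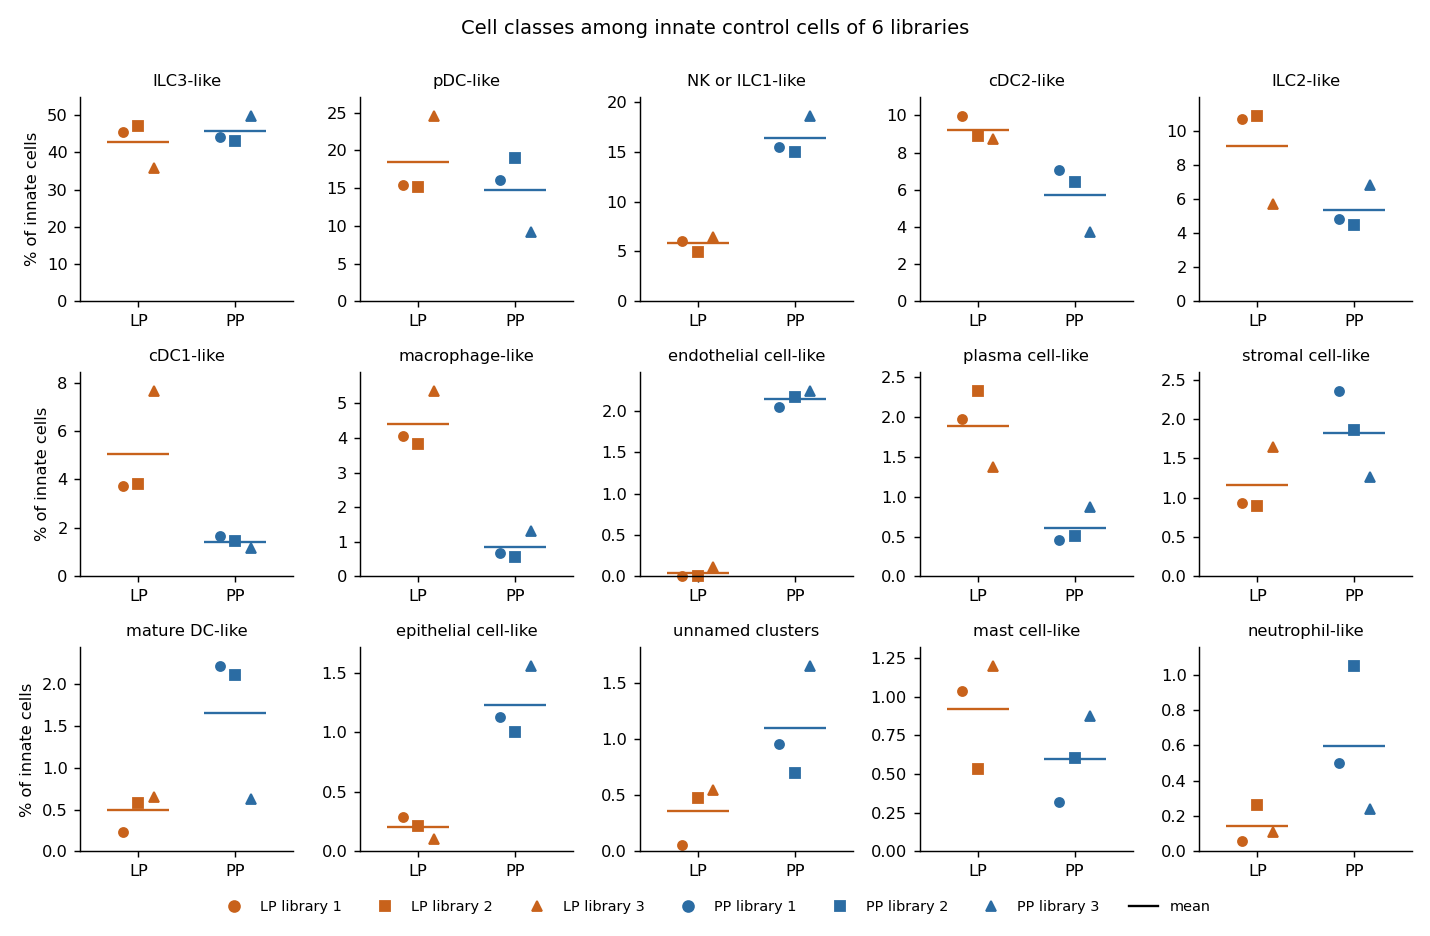
Share of the innate control cells of each library in each class (y axis, percent from 0), with the 3 LP libraries left and the 3 PP libraries right and a line at the mean. Macrophage-like cells lay at 3.82 to 5.36% in LP and 0.552 to 1.31% in PP, while ILC3-like cells overlapped between the tissues.

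Macrophage-like cells, the resident phagocytes, made up 4.06%, 3.82% and 5.36% of innate cells in LP1, LP2 and LP3, against 0.681%, 0.552% and 1.31% in PP1, PP2 and PP3. The tissues did not overlap, and the log2 ratio LP over PP was 2.37 ± 0.42 (SE, n = 3 libraries each, edgeR adjusted p = 3.93e-06). The size of this ratio depends on the naming rule: cluster 24, unnamed here, took the name macrophage under the other rules. It held 0%, 0.053% and 0.164% of innate cells in LP and 0.272%, 0.351% and 1.22% in PP, so including it narrows the difference. cDC1-like cells made up 3.71%, 3.82% and 7.66% in LP and 1.68%, 1.45% and 1.17% in PP (log2 1.81 ± 0.40, edgeR adjusted p = 0.000103). The LP library of the later run date was the highest. That direction turned, to a log2 ratio of -0.94 (edgeR adjusted p = 0.232), under a stricter lineage rule, which also removes cells with a UMI of further T cell, B cell and plasma cell genes, Jchain among them, and leaves 84 to 226 cells in each LP library and 347 to 686 in each PP library. NK or ILC1-like cells made up 6.09%, 4.93% and 6.46% in LP and 15.5%, 15% and 18.6% in PP (log2 -1.49 ± 0.37, edgeR adjusted p = 0.00044). That direction depends on the naming rule: cluster 1, with 873 LP and 26 PP cells, took the name ILC3 here, and under 2 of the other rules it took the name NK or ILC1 and turned this ratio to 0.38 (edgeR adjusted p = 0.318 and 0.311).

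Mature DC-like cells, DCs that have switched on Ccr7 and migrate, were at 0.232%, 0.583% and 0.656% in LP and at 2.22%, 2.11% and 0.632% in PP. PP3 lay within the range of the LP libraries, the log2 ratio was -1.73 ± 0.47 (edgeR adjusted p = 0.00131), and without LP3 the adjusted p was 0.0506. Endothelial cell-like cells numbered 0, 0 and 2 in LP and 45, 43 and 46 in PP, and epithelial cell-like cells numbered 5, 4 and 2 in LP and 25, 20 and 32 in PP. Both groups were lower in LP in every library (edgeR adjusted p = 7.96e-10 and 0.000103). Neutrophil-like cells numbered 1, 5 and 2 in LP and 11, 21 and 5 in PP (log2 -1.97 ± 0.64, edgeR adjusted p = 0.00508), a call lost without LP3 (adjusted p = 0.101) and without PP2 (log2 -1.31, adjusted p = 0.136), with a ratio of -2.73 without LP2.

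The 9 classes that passed also include the unnamed cells (log2 -1.58 ± 0.51, edgeR adjusted p = 0.00508) and the plasma cell-like class (log2 1.63 ± 0.45, edgeR adjusted p = 0.00137), which is not compared for a reason given with its genes. The other named classes did not pass. ILC2-like cells were at 10.7%, 10.9% and 5.74% in LP and 4.81%, 4.46% and 6.81% in PP (log2 0.77 ± 0.37, edgeR adjusted p = 0.0615), and they passed without LP3 (adjusted p = 0.0153) and without PP3 (adjusted p = 0.00605). cDC2-like cells were at 9.98%, 8.91% and 8.75% in LP and 7.04%, 6.42% and 3.74% in PP (log2 0.68 ± 0.37, edgeR adjusted p = 0.0905), with libraries that did not overlap. pDC-like cells ranged from 15.2 to 24.6% in LP and from 9.24 to 19.0% in PP, mast cell-like cells from 0.530 to 1.20% in LP and 0.318 to 0.875% in PP, and stromal cell-like cells from 0.901 to 1.64% in LP and 1.26 to 2.36% in PP, the last passing without PP3 (edgeR adjusted p = 0.0366). Leading genes of some classes also differed between the tissues within the class, among them C1qa, C1qb and C1qc of the macrophage cluster. When markers and list genes were kept out of the clustering, the macrophage ratio was 2.21, the cDC1 ratio 1.86, the NK or ILC1 ratio -1.50 and the mature DC ratio -1.76 on the log2 scale, and 9 classes passed.

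ILC3-like cells of LP and PP fell largely into different clusters, although their total share did not differ beyond its error (log2 -0.10 ± 0.35, edgeR adjusted p = 0.785). That total depends on the naming rule: under the other rules cluster 10, with 352 LP and 71 PP cells, took no name. Under those rules cluster 1 took no name or the name NK or ILC1. Clusters 3 and 4 took no name with folds against the pooled rest, and clusters 5 and 9 none with folds against the median cluster. With each of those rules the total share over the pooled libraries was lower in LP than in PP. The similar total thus holds for the rule used only. Clusters 1, 3 and 10 held 92.8%, 91.6% and 73.5% of the ILC3-like cells of LP1, LP2 and LP3, against 12.1%, 6.98% and 9.57% in PP1, PP2 and PP3. Clusters 4, 5, 9 and 14 held 5.87%, 7.2% and 16.9% in LP and 85.8%, 91.3% and 88.9% in PP. These sizes are given as a description with no test, because 7 of the 61 leading genes of the ILC3-like clusters also differed between the tissues, among them Ccr6, Cd83, S100a4 and Odc1. The clustering aligned run dates within a tissue and did not align the tissues, which favours agreement between libraries of a tissue. In the planned clustering, made without this alignment, clusters that best matched ILC3 held 547 and 458 control cells, all of PP3. The part of run date in the split between tissues was not tested.

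Ncr1, a natural cytotoxicity receptor of NKp46+ ILC3s and NK cells, was at 612 and 404 CPM (UMIs of the gene per 1000000 UMIs, here pooled over 12 libraries) in the LP clusters 1 and 10 and at 642 and 581 CPM in the PP clusters 5 and 9. In the other LP cluster, 3, it was at 99.0 CPM, and in the PP clusters 4 and 14 at 46.8 and 33.7 CPM. Ccr6, a chemokine receptor of lymphoid tissue inducer (LTi)-like ILC3s, ran the other way, at 214 CPM in cluster 3, 375 CPM in cluster 4 and 280 CPM in cluster 14, against 29.6 CPM in cluster 1. Each tissue thus had Ncr1-high and Ccr6-high clusters of its own. Tbx21, a transcription factor of NK cells and ILC1s, was at 116 CPM in cluster 1 and 71.0 CPM in cluster 10. In the PP clusters 5 and 9 it was at 60.8 and 30.4 CPM. Nkg7 was at 569 CPM in cluster 1, 335 CPM in cluster 10, 361 CPM in cluster 5 and 357 CPM in cluster 9. Il22, the cytokine that acts on epithelium, was at 374 CPM in cluster 1, 1153 CPM in cluster 3 and 243 CPM in cluster 10, and in the PP clusters at 1108 CPM in cluster 4, 352 CPM in cluster 5, 3024 CPM in cluster 9 and 4593 CPM in cluster 14. Cd83 was at 1728 CPM in cluster 14 and 50.2 CPM in cluster 1.

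**Figure D2:**
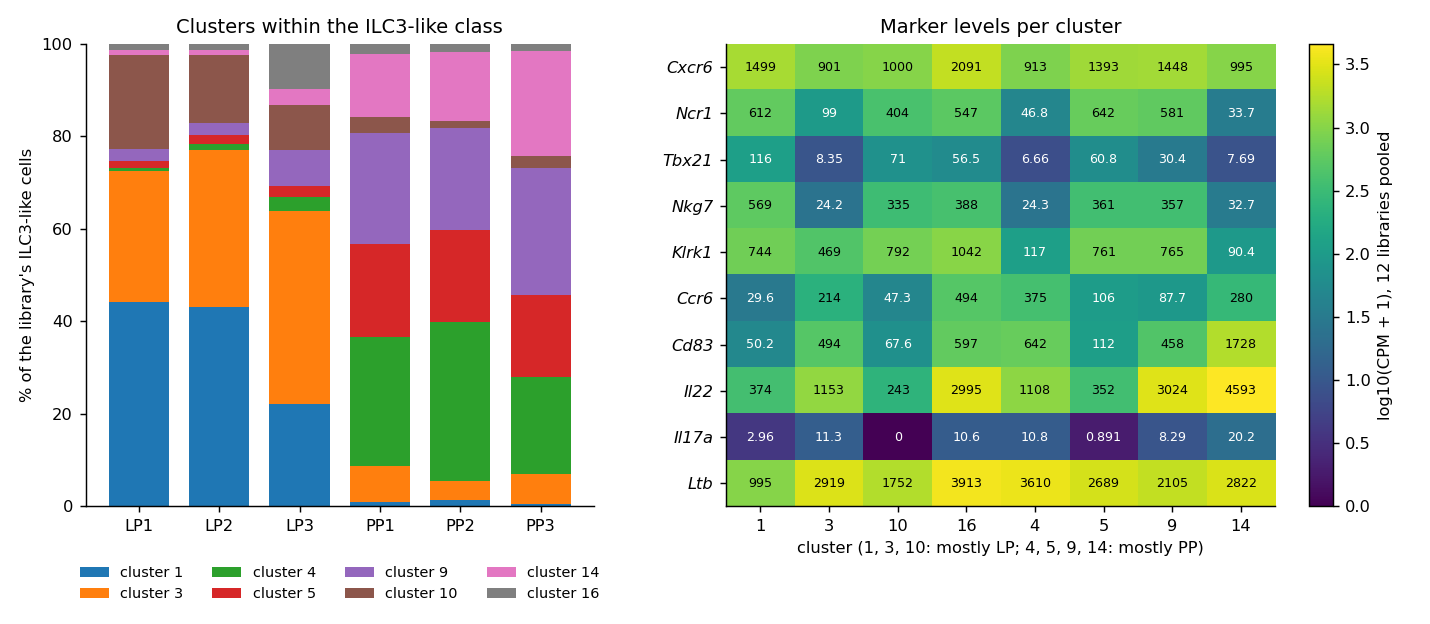
Left, share of each library's ILC3-like cells in each of 8 clusters (stacked bars, percent). Right, CPM of marker genes per cluster, pooled over 12 libraries and coloured on a log10 scale, with the LP clusters 1, 3 and 10 first. Ncr1 was high in clusters 1, 10, 5, 9 and 16.

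The sums over all innate cells were then compared gene by gene. Of 12071 genes tested, 556 were higher in LP (4.61%) and 665 lower (5.51%), 1221 in all (10.1%), and for each of these the LP and PP libraries did not overlap. Immunoglobulin, complement and cell cycle transcripts were higher in LP, and transcripts of lymphoid stroma, epithelium, Paneth cells and NK cells were lower. The median log2 ratio over all genes was -0.017. These sums do not separate the number of cells of a class from the RNA per cell. The number of genes called was 115 when libraries of a run date were summed, 114 of them among the 1221. It ranged from 437 without LP1 to 1764 without PP3, and was 481 without LP2, 733 without PP1 and 726 without PP2. All 1221 genes kept their direction in each of these fits, which libraries that do not overlap nearly fix in advance, so this adds no support. Values below are CPM on library sizes corrected with TMM (edgeR's trimmed mean), and each log2 ratio is LP over PP with its SE and edgeR's adjusted p.

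**Figure D3:**
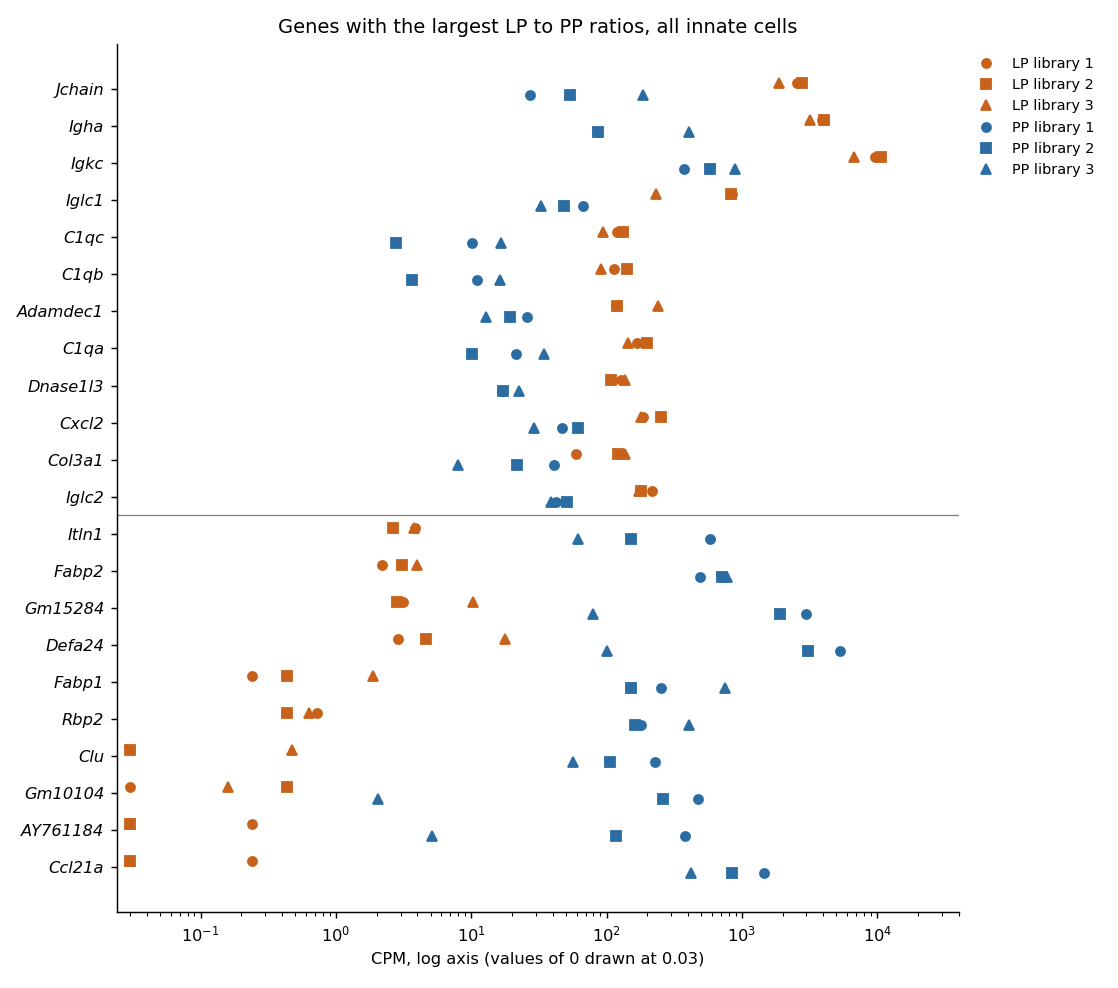
CPM of 22 genes named by rule in the sum over innate cells (log x axis, values of 0 drawn at 0.03), LP libraries above PP libraries for each gene. In LP no library exceeded 17.7 CPM for the lower genes, and Ccl21a had 1 UMI in LP in all.

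Antibody chains and the joining chain, products of plasma cells, made up 5 of the 12 genes named as highest in LP. Igha, the constant region of IgA, had 3879, 4017 and 3211 CPM in LP1, LP2 and LP3, against 84.8, 86.9 and 407 CPM in PP1, PP2 and PP3 (log2 4.26 ± 0.66, adjusted p = 0.00869, mm10 chromosome 12, 113254830 to 113260236). Igkc, the kappa light chain constant region, had 9560, 10659 and 6784 CPM in LP and 372, 577 and 889 CPM in PP (log2 3.88 ± 0.36, adjusted p = 0.00161). PP3 was the highest PP library for both and lay below every LP library. Jchain, which joins IgA into dimers, had a log2 ratio of 4.77 ± 0.70, and without PP3 the ratios of Igha and Jchain were 5.43 and 5.89. For the lambda chain genes Iglc1 and Iglc2 the log2 ratios were 3.69 ± 0.52 and 2.11 ± 0.15. The plasma cell-like class held 52.3% (Igha) to 68.2% (Jchain) of the LP UMIs of these 5 genes. The rest lay in every other class: over 30 class sums of LP outside the plasma cell-like class Igkc was at 1987 to 7744 CPM, against 165 to 969 CPM over 40 class sums of PP. Igha was at 1084 to 3431 CPM in those LP sums and 38.2 to 324 CPM in those PP sums. Immunoglobulin RNA was thus also counted outside the plasma cell-like class, at higher levels in LP, and its part in the single-class results below was not tested. In PP1, PP2 and PP3 Igkc was at 884, 969 and 687 CPM in pDC-like cells, against 201, 303 and 297 CPM in ILC3-like cells. Of 19 immunoglobulin and plasma cell genes tested 9 were higher in LP (list median log2 0.98), among them Tnfrsf17, a survival receptor of plasma cells (9.89, 5.03 and 6.79 CPM in LP, 0.326, 0.322 and 0.584 CPM in PP, log2 4.12 ± 0.42, adjusted p = 0.00213).

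Complement C1q, made by tissue macrophages, was the next group. C1qa had 167, 200 and 145 CPM in LP and 21.4, 10.2 and 34.2 CPM in PP (log2 2.97 ± 0.39, adjusted p = 0.0053), and its neighbours on mm10 chromosome 4, C1qb and C1qc, had log2 ratios of 3.50 ± 0.46 and 3.56 ± 0.52. Macrophage-like cells held 94.3 to 95.9% of the LP UMIs of these 3 genes and 66.0 to 69.0% of the PP UMIs. Of 26 monocyte and macrophage genes tested 12 were higher and 2 lower (median log2 1.34), with the Fc receptor gene Fcgr1 at 8.68, 7.22 and 7.58 CPM in LP and 0.760, 0.107 and 1.31 CPM in PP (log2 3.47 ± 0.55, adjusted p = 0.00907, and 4.12 without PP3). Of 26 conventional and mature DC genes 11 were higher and 1 lower (median log2 0.62). Dnase1l3, a secreted nuclease, had 128, 107 and 136 CPM in LP and 16.9, 17.3 and 22.5 CPM in PP (log2 2.72 ± 0.16, adjusted p = 0.00055, and 0.0268 with the libraries of a run date summed), with 48.5% of its LP UMIs in cDC1-like cells. Naaa, which marks cDC1s, had a log2 ratio of 2.07 ± 0.28, which turned to -0.45 (adjusted p = 0.687) under the stricter lineage rule. Ccl17, a chemokine of DCs, had a log2 ratio of 2.81 ± 0.31, and Aldh1a2, which makes retinoic acid, 2.54 ± 0.31.

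The other genes named as highest in LP were Adamdec1, a metalloprotease gene of gut stroma and macrophages (log2 3.03 ± 0.36), the neutrophil chemokine gene Cxcl2 (log2 2.17 ± 0.27) and Col3a1, a collagen chain. Col3a1 had 59.8, 121 and 137 CPM in LP and 40.6, 21.8 and 8.03 CPM in PP (log2 2.16 ± 0.54, adjusted p = 0.0454). Its call was lost without LP1 (adjusted p = 0.075), LP2 (0.142), LP3 (0.111) or PP2 (0.115), and without PP1 the ratio was 2.81. Vwf, known for its expression in endothelium, was higher in LP too (8.44, 10.3 and 16.3 CPM in LP, 1.41, 1.93 and 1.02 CPM in PP, log2 2.98 ± 0.35, adjusted p = 0.00404). In LP 91.4% of its UMIs lay in cDC1-like cells, while in PP 55.3% lay in endothelial cell-like cells.

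Genes of lymphoid stroma and of epithelium led those lower in LP. Ccl21a, a chemokine that draws Ccr7+ cells into lymphoid tissue (mm10 chromosome 4, 42772860 to 42773993), had 1 UMI over the 3 LP libraries and 24228 UMIs over the 3 PP libraries, where it was at 1461, 846 and 421 CPM. The ratio of its CPM, PP over LP, was 14887 with a 95% exact counting interval of 2672 to 588035. Clu, a secreted chaperone, had 3 UMIs in LP and 3464 in PP, a ratio of 709 (243 to 3442). Stromal cell-like cells held 93.3% of the PP UMIs of Ccl21a and 77.2% of those of Clu.

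The enterocyte genes Fabp1, Fabp2 and Rbp2, which bind fatty acids and retinol, had 0.241 to 3.95 CPM over the LP libraries and 152 to 781 CPM over the PP libraries. Fabp2 was the steadiest, at 2.17, 3.06 and 3.95 CPM in LP and 493, 718 and 781 CPM in PP (log2 -7.72 ± 0.29, adjusted p = 0.000112, and 0.00929 with libraries of a date summed). Of 20 epithelial genes tested 17 passed, each lower in LP (median log2 -3.50), and 5 of the list were called when cells of plasma, stromal, endothelial and epithelial clusters were left out. Apoa4, an apolipoprotein of enterocytes, had 0 UMIs in LP and 513 in PP, which makes it at least 105-fold lower in LP.

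A further 5 genes among the lowest, Defa24, AY761184, Itln1, Gm10104 and Gm15284, rest on few cells. Defa24 is an alpha-defensin gene of Paneth cells, the secretory cells of the crypt base, and Itln1 is a lectin gene of the same cells. Defa24 had 2.89, 4.60 and 17.7 CPM in LP and 5346, 3080 and 101 CPM in PP (log2 -8.34 ± 1.52, adjusted p = 0.0156), so that PP3 lay far below the other PP libraries, and the ratio was -9.54 without LP3 and -7.50 without PP1. The cluster named plasma cell-like held 91.7 to 99.3% of the PP UMIs of these 5 genes, and within it 3 of the 10 cells of PP1 and 3 of the 10 cells of PP2 had over 10% Paneth cell UMIs. Calls were lost without LP1, LP2 or LP3 for AY761184 (adjusted p = 0.138, 0.101 and 0.0839), without LP1 or LP2 for Defa24 (0.0827 and 0.0845) and Gm15284 (0.0713 and 0.0687), and without any library but PP3 for Gm10104 (0.0501 to 0.125). Alpha-defensin genes are near-identical copies, so reads may have been split between them, and their single values are uncertain.

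Genes of ILC3s and of NK cells were lower in the LP sums. Of 24 genes of ILC3s and LTi cells 12 passed, each lower in LP (median log2 -0.84), and of 22 NK and ILC1 genes 12 passed, each lower (median log2 -0.95). Ccr6 had 24.4, 31.1 and 28.9 CPM in LP and 75.0, 75.2 and 112 CPM in PP (log2 -1.63 ± 0.19, adjusted p = 0.00404). Cxcr5, the receptor for the follicle chemokine Cxcl13, had 5.79, 6.35 and 10.3 CPM in LP and 22.7, 20.7 and 18.7 CPM in PP (log2 -1.44 ± 0.23, adjusted p = 0.00961, and 0.0531 without LP2). The tissues did not overlap for either receptor. Eomes, a transcription factor of NK cells, had 2.65, 1.53 and 4.42 CPM in LP and 20.1, 19.6 and 33.1 CPM in PP (log2 -3.01 ± 0.37, adjusted p = 0.00452), with NK or ILC1-like cells holding 95.7% and 85.5% of its UMIs. Klra9, an NK receptor gene of a family with near-identical members, had a log2 ratio of -1.84 ± 0.25. Tnfrsf9, a costimulatory receptor, was lower at 8.20, 8.32 and 9.47 CPM in LP and 41.2, 38.4 and 52.6 CPM in PP (log2 -2.34 ± 0.17, adjusted p = 0.000719, and 0.0305 with libraries of a date summed), and S1pr1, an exit receptor, had a log2 ratio of -2.98 ± 0.44.

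Receptors for the neuropeptide VIP and for prostaglandin E2 were among the genes lower in LP. Vipr2 had 5.31, 7.22 and 6.47 CPM in LP and 18.0, 18.3 and 31.2 CPM in PP (log2 -1.82 ± 0.27, adjusted p = 0.00779), and Ptger2 had 12.5, 11.8 and 12.9 CPM in LP and 24.9, 23.5 and 28.2 CPM in PP (log2 -1.03 ± 0.14, adjusted p = 0.00546). ILC3-like cells held 81.2% and 80.4% of the Vipr2 UMIs. Of 20 neuropeptide and metabolite receptor genes 4 passed, each lower (median log2 -0.10).

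Further lists moved towards LP. Of 16 genes known from phagocytes of the subepithelial dome, a part of Peyer's patches, 8 were higher in LP and 4 lower (median log2 0.86). Ccr6, given above, was among the lower ones. The list shares members such as Lyz2 and Itgax with the macrophage and DC lists, and does not mark dome phagocytes alone. Il22ra2, the secreted decoy receptor of IL-22, had 73.3, 73.5 and 30.5 CPM in LP and 5.86, 7.40 and 3.50 CPM in PP (log2 3.37 ± 0.41, adjusted p = 0.00414), and its direction turned, to -0.32 (adjusted p = 0.932), when all 10 PP control libraries were used. Mmp12, a macrophage elastase, had a log2 ratio of 2.23 ± 0.35. Of 19 genes of toll-like receptors and sensing 5 were higher and 1 lower (median log2 0.46). Clec4n, a C-type lectin receptor, had 39.6, 44.4 and 48.1 CPM in LP and 4.23, 9.44 and 6.72 CPM in PP (log2 2.69 ± 0.27, adjusted p = 0.00205, and 0.0221 with libraries of a date summed), and Tlr11 had 2.35 ± 0.33 with 76.5% of its LP UMIs in cDC1-like cells. Itgae, the integrin chain CD103, had 37.1, 35.9 and 64.2 CPM in LP and 11.4, 13.7 and 7.59 CPM in PP (log2 2.06 ± 0.30, adjusted p = 0.00687). Of 15 genes of the aryl hydrocarbon and retinoic acid response 4 passed, each higher (median log2 0.58), among them Ahrr, a repressor that the aryl hydrocarbon receptor induces (log2 2.51 ± 0.41, adjusted p = 0.0102, and 0.0525 without LP1).

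Cell cycle genes were higher in LP as a group. Of 24 tested 14 passed, each higher, with a list median log2 ratio of 1.22 against -0.017 over all genes, and 2 of the 24 were called with libraries of a date summed. Ube2c, which encodes an enzyme of the anaphase-promoting complex, had 35.9, 23.4 and 37.9 CPM in LP and 4.78, 3.65 and 3.65 CPM in PP (log2 3.00 ± 0.24, adjusted p = 0.00101, and 0.0267 with libraries of a date summed). Ccna2, cyclin A2, had 12.5, 8.53 and 16.4 CPM in LP and 2.17, 2.15 and 2.48 CPM in PP (log2 2.47 ± 0.29, adjusted p = 0.00395). Ccnb1, cyclin B1, had 6.99, 2.84 and 6.31 CPM in LP and 1.52, 0.966 and 0.584 CPM in PP (log2 2.35 ± 0.46, adjusted p = 0.0206), a call lost without LP1 (0.0912), LP3 (0.0621) or PP2 (0.0709). In LP cDC2-like cells held 53.8% of the UMIs of Ube2c, 34.4% of those of Ccna2 and 45.1% of those of Ccnb1.

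The promoters of such genes are known for CCAAT boxes, bound by NF-Y, and for the cell cycle homology region TTTGAA. They are shown for 2 genes higher in LP, Ube2c, whose promoter holds both motifs, and Ccnb1, whose promoter holds CCAAT, from 250 bases before to 50 bases after the start (RefSeq, GRCm38.p6). Capitals mark CCAAT on either strand and also mark, on either strand, the letters TTTGAA. The Ube2c promoter is chr2:164769679-164769978 on the plus strand and the Ccnb1 promoter is chr13:100786437-100786736 on the minus strand.
Ube2c: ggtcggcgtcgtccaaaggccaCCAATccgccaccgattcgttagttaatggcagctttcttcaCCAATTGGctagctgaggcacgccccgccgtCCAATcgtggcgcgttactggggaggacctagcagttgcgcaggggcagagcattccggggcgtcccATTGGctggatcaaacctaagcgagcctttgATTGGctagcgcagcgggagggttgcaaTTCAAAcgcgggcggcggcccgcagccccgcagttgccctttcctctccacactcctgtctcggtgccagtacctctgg
Ccnb1: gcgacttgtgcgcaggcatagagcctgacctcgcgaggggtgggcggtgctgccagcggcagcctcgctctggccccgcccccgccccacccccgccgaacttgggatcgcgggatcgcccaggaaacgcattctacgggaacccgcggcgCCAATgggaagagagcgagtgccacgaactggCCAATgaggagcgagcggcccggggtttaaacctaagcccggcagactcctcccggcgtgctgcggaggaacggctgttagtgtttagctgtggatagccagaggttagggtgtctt
Ube2c held 6 matches to CCAAT on either strand, of which one pair overlaps, and 1 match to TTTGAA, and Ccnb1 held 2 matches to CCAAT. Of the 14 cell cycle genes called 11 had a promoter in the table, and 9 of these held CCAAT and 7 held TTTGAA. Of the cell cycle genes that were not called 9 had a promoter there, and 8 of these held CCAAT and 3 held TTTGAA. Among all 32851 promoters of 300 bases 37.4% held CCAAT and 17.9% held TTTGAA. A match describes the letters of this window and does not show binding.

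Sums per class tell a gene that differs within a class from one that follows class shares. Among the 11 classes with enough cells, stromal cell-like cells differed at the largest share of genes tested and cDC2-like cells at the largest number. NK or ILC1-like cells and pDC-like cells differed at few genes. In LP, NK or ILC1-like cells numbered 316, against 500 cDC2-like cells. The median cell of the NK or ILC1-like clusters had 0.797 and 0.869 times its library's median UMIs, against 2.933 times in the cDC2-like cluster. These numbers of calls thus rest on unequal depth. Immunoglobulin genes or Jchain were among the genes named as highest in LP in 8 of these classes, all but cDC2-like, stromal cell-like and plasma cell-like cells, and after the levels given above their values are not repeated.

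**Figure D4:**
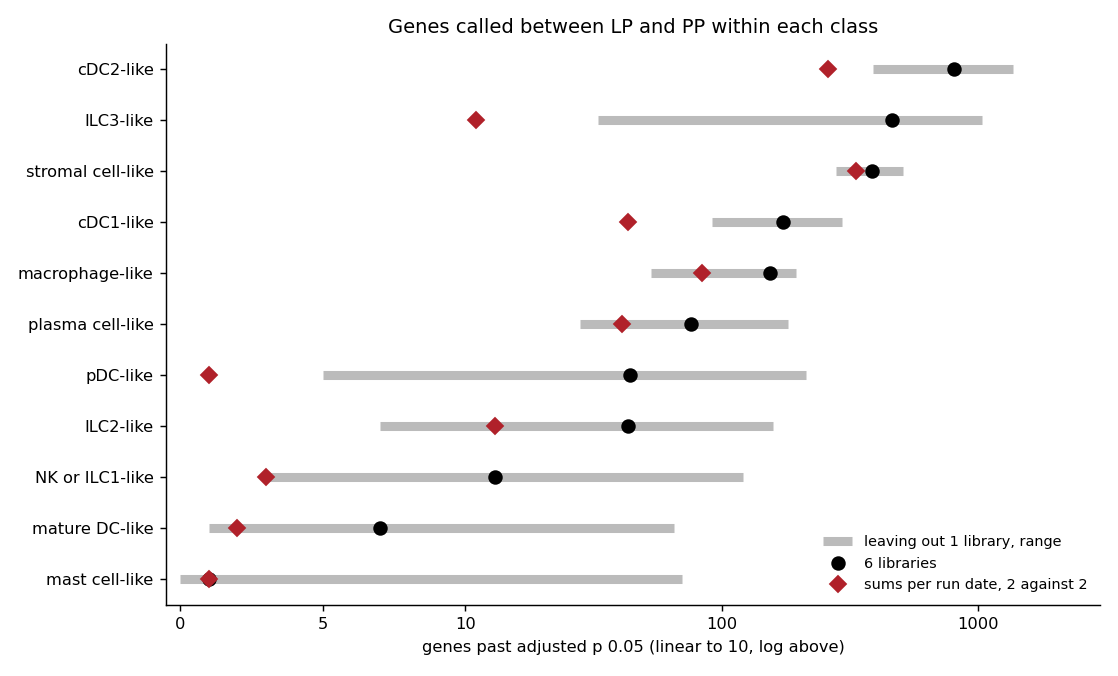
Number of genes past adjusted p 0.05 within each class (x axis, linear to 10 and log above), for the 6 libraries (black), for sums per run date (red), and as a range over fits that leave out 1 library (grey). The cDC2-like class had 808 calls, 259 with sums per run date and 390 to 1373 without a library.

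Within cDC2-like cells the LP cells carried more transcripts of chemokine and cytokine ligand genes and of cell cycle genes. The name of this class is weak. Its mean log2 ratio of markers over the median cluster was 2.05 for cDC2 and 1.67 for monocytes, and some other naming rules left it unnamed. The cDC2 markers summed to 2448 to 2557 CPM in LP, against 1129 to 1185 CPM in the other innate cells there. Whether the cluster holds the same cells in both tissues was not tested. The class held 500 LP and 360 PP cells, all from cluster 8, and 454 genes were higher and 354 lower of 6976 tested (11.6%). With libraries of a date summed 259 genes were called, 242 of them among these, and leaving out a library gave 390 calls (without LP1) to 1373 (without PP3), with 433 without LP2, 494 without PP1 and 451 without PP2. Of 24 chemokine and cytokine ligand genes 14 were higher and 3 lower (median log2 1.39, against -0.02 over all genes of the class). Ccl17, the ligand of Ccr4, had 153, 180 and 157 CPM of cDC2-like UMIs in LP and 2.24, 0.775 and 9.63 CPM in PP (log2 5.74 ± 0.39, adjusted p = 6.51e-05). Ccl22, the second ligand of that receptor, had 105, 109 and 66.4 CPM in LP and 2.24, 3.10 and 21.2 CPM in PP (log2 3.91 ± 0.52, adjusted p = 0.00135). Both were higher in every LP library than in any PP library, and without PP3 their ratios were 6.65 and 5.06, with 5.15 for Ccl17 without PP2. Cxcl2 had 428, 682 and 401 CPM in LP and 41.0, 38.0 and 11.6 CPM in PP (log2 3.93 ± 0.34, adjusted p = 0.000281). Il23a, a subunit of IL-23, had 62 UMIs in LP and 1 UMI in PP, a ratio of 64.4 with a 95% exact counting interval of 11.1 to 2583.

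**Figure D5:**
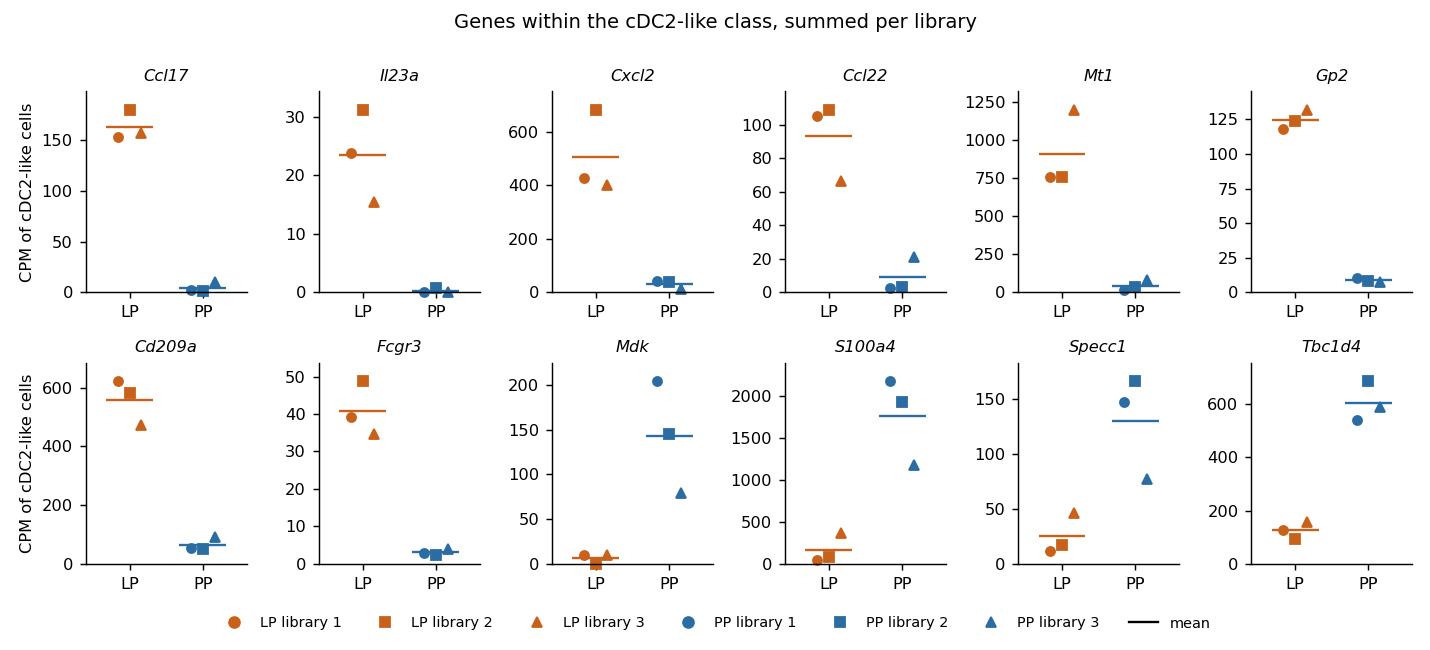
CPM of 12 genes within cDC2-like cells (y axes from 0), each point 1 library, LP left and PP right, with a line at the mean. Ccl17 lay at 153 to 180 CPM in LP and 0.775 to 9.63 CPM in PP, and S100a4 at 42.9 to 365 CPM in LP and 1186 to 2179 CPM in PP.

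Mt1, a metallothionein that binds zinc and copper, had 759, 755 and 1198 CPM in LP and 15.7, 35.6 and 79.0 CPM in PP (log2 4.54 ± 0.45, adjusted p = 0.000466). Gp2, a glycoprotein that binds bacterial FimH and is known as a receptor of M cells, had 118, 124 and 132 CPM in LP and 10.4, 7.75 and 7.70 CPM in PP (log2 3.80 ± 0.21, adjusted p = 2.16e-05). In the food allergy libraries, which were not used for this call, the Gp2 ratio in cDC2-like cells was -0.38 (adjusted p = 0.80), while that of Mt1 was 2.96 (adjusted p = 0.000542). Without PP3 the Mt1 ratio in the controls was 5.15. Cd209a, a lectin that marks cDC2s, had 621, 581 and 472 CPM in LP and 54.5, 49.6 and 92.4 CPM in PP (log2 3.15 ± 0.24, adjusted p = 9.9e-05). Fcgr3, an Fc receptor, had 39.3, 48.7 and 34.6 CPM in LP and 2.99, 2.32 and 3.85 CPM in PP (log2 3.76 ± 0.34, adjusted p = 0.000314). Of 17 monocyte and macrophage genes 9 were higher and 1 lower (median log2 1.22), of 22 cell cycle genes 8 passed, each higher (median log2 0.91), and of 22 genes of MHC class II and antigen presentation 4 were higher and 4 lower (median log2 0.08).

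Lower in LP cDC2-like cells were Mdk, S100a4, Specc1 and Tbc1d4. S100a4, a calcium-binding protein of motile cells, had 42.9, 82.3 and 365 CPM in LP and 2179, 1928 and 1186 CPM in PP (log2 -3.41 ± 0.63, adjusted p = 0.00637). Mdk, the growth factor midkine, had 9.53, 0 and 10.0 CPM in LP and 204, 145 and 79.0 CPM in PP (log2 -4.40 ± 0.52, adjusted p = 0.000818). Tbc1d4, a Rab GTPase-activating protein, had 128, 94.8 and 157 CPM in LP and 540, 686 and 589 CPM in PP (log2 -2.25 ± 0.20, adjusted p = 0.000314), and it is one of 3 leading genes of this cluster that differed between the tissues, with Il22ra2 and Plet1. Specc1 had a log2 ratio of -2.33 ± 0.41. Without LP3 the ratios of S100a4 and Specc1 were -4.81 and -3.18, and both calls were lost with libraries of a date summed (adjusted p = 0.0653 and 0.0791). Markers of other cells were also lower in LP cDC2-like cells: 8 of 15 ILC3 and LTi genes with 1 higher (median log2 -1.09), 5 of 9 NK and ILC1 genes (median log2 -1.70), 3 of 4 T cell genes (median log2 -2.52) and 5 of 19 pDC genes (median log2 -0.75). Tcf7, a lymphocyte transcription factor, was at 2.38, 6.24 and 11.8 CPM in LP and 67.2, 99.9 and 77.0 CPM in PP of this class. The part of such cells or of their free RNA in the results was not tested, and with doublets removed the class had 841 calls.

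Macrophage-like cells of LP had more transcripts of several macrophage and chemokine genes, among them Ms4a7 and Ccl3. The class held 240 LP and 53 PP cells, and 83 genes were higher and 71 lower of 1950 tested (7.90%), with 84 calls by date sums and 53 (without LP2) to 195 (without LP3) when a library was left out, 60 of them without LP1 and 101 without PP1. C1qc had 3293, 3360 and 2017 CPM in LP and 865, 68.2 and 743 CPM in PP (log2 2.31 ± 0.51, adjusted p = 0.0187), with PP2, which had 11 such cells, far below the rest. C1qa, C1qb, C1qc, Apoe and Csf1r are leading genes of the cluster, so this value is a description. The call of C1qc was lost without LP1 (0.0724) or LP2 (0.0799). Ms4a7, a macrophage marker, had 599, 689 and 511 CPM in LP and 67.4, 51.1 and 195 CPM in PP (log2 2.39 ± 0.37, adjusted p = 0.00336, and 3.26 without PP3). Of 22 monocyte and macrophage genes 9 were higher and 2 lower (median log2 0.56, against 0.02 over all genes), the lower ones being Plac8 and Ly6c2, which mark monocytes. Among the higher ones Ms4a7, C1qa, C1qb, C1qc, Adgre1, Apoe and Csf1r are markers that named the cluster. The macrophage markers summed to 29531, 35371 and 25911 CPM in LP and 11627, 6598 and 12359 CPM in PP of this class. Cluster 24, with 4 LP and 38 PP cells and the name macrophage under the other naming rules, is not part of these sums. Whether the cluster holds the same cells in both tissues was not tested. The call of Plac8 was lost without LP1, LP2, PP1 or PP3 (adjusted p of 0.0649 to 0.169). Ly6c2 had 395, 263 and 490 CPM in LP and 1472, 801 and 1050 CPM in PP (log2 -1.53 ± 0.29, adjusted p = 0.00932, and 0.0531 and 0.0586 without LP1 and LP2).

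Ccl3, a chemokine, had 762, 1018 and 693 CPM in LP macrophage-like cells and 11.2, 51.1 and 167 CPM in PP (log2 3.29 ± 0.48, adjusted p = 0.00333, and 4.85 without PP3), and 6 of 14 chemokine and cytokine ligand genes were higher and 1 lower. Cxcl1 had 99 UMIs in LP and 2 in PP, a ratio of 20.3 (5.47 to 170), and Pf4, platelet factor 4, had 347, 341 and 270 CPM in LP and 56.2, 0 and 0 CPM in PP (log2 3.95 ± 0.60, adjusted p = 0.00336, and 3.18 without PP3). Ccr7 had 0 UMIs in LP and 126 in PP, which makes it at least 102-fold lower in LP macrophage-like cells. Ceacam1 and S100a4 were lower as well, with log2 ratios of -3.40 ± 0.48 and -2.76 ± 0.51, which were -4.15 and -3.66 without LP3. Rrad, a small GTPase, was at 27.2, 47.9 and 59.5 CPM in LP and 989, 102 and 121 CPM in PP (log2 -3.11 ± 0.76, adjusted p = 0.0295), a value set by PP1, without which the log2 ratio was -1.24 (adjusted p = 0.181). Its call was also lost without LP1, LP2 or LP3 (0.108, 0.0977 and 0.0507), and with markers and list genes kept out of the clustering the ratio was -1.16 (adjusted p = 0.0857). For MHC class II and antigen presentation, 3 of 16 genes passed, each higher.

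In cDC1-like cells, 276 from LP and 90 from PP, 89 genes were higher and 84 lower of 3956 (4.37%). Itgae, CD103, had 145, 187 and 223 CPM in LP and 49.7, 68.9 and 32.6 CPM in PP (log2 1.83 ± 0.26, adjusted p = 0.00137). Ccr2, which guides cells from blood into tissue, had 40.5, 41.8 and 52.7 CPM in LP and 139, 178 and 163 CPM in PP (log2 -1.77 ± 0.22, adjusted p = 0.00049). Il1b had 268, 261 and 493 CPM in LP and 1343, 1870 and 1049 CPM in PP (log2 -2.05 ± 0.27, adjusted p = 0.000804). No library of one tissue lay within the range of the other for these 3 genes. S100a6, a calcium-binding protein, had 80.9, 51.8 and 71.6 CPM in LP and 340, 330 and 254 CPM in PP (log2 -2.19 ± 0.20, adjusted p = 7.03e-05). Ltb, lymphotoxin beta, had 6.39, 7.97 and 10.2 CPM in LP and 54.9, 72.5 and 313 CPM in PP (log2 -3.78 ± 0.64, adjusted p = 0.0042). PP3 was far above the other PP libraries, and without it the Ltb ratio was -2.81 (adjusted p = 0.000224). Ltb was also called lower in LP in ILC3-like, cDC2-like, macrophage-like and pDC-like cells. In the ILC3-like clusters it was at 995 to 3913 CPM, pooled over 12 libraries. The part of ILC3-like cells or of their free RNA in the Ltb values of the other classes was not tested. Ramp1, a subunit of the CGRP receptor, had 14.9, 19.9 and 33.8 CPM in LP and 152, 120 and 189 CPM in PP (log2 -2.55 ± 0.30, adjusted p = 0.000464). Zfp36l1 had a log2 ratio of -2.09 ± 0.43, lost without LP1 (0.056) or LP2 (0.0622) and at -1.38 without PP3. With libraries of a date summed 43 genes were called, 40 of them shared, and a left-out library gave 92 calls (without LP1) to 294 (without LP3), with 100 without LP2, 117 without PP1 and 95 without PP2.

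Mature DC-like cells numbered 4, 11 and 12 in LP and 49, 42 and 13 in PP, and LP1 was left out of the gene test for its few cells. Of 1033 genes 5 were higher and 2 lower (0.678%), a number that was 65 without LP3, 1 without PP2 and 4 without PP1. Fits without LP2 or LP3 leave 1 LP library, which is assumed to vary like the PP libraries. Rgs1, a regulator of chemokine receptor signalling, had 2504 and 2415 CPM in LP2 and LP3 and 504, 903 and 538 CPM in PP (log2 1.90 ± 0.30, adjusted p = 0.0267). H2-M2, a non-classical MHC gene that leads this cluster, had 3 UMIs in LP and 376 in PP, a ratio of 37.5 (12.7 to 183), and Tmem176a had a log2 ratio of -2.37 ± 0.37. Leaving out any of LP2, PP1 or PP2 ended the calls of Rgs1 and Tmem176a (adjusted p of 0.0557 to 0.158, that without LP2 from 1 LP library), leaving out PP3 that of Rgs1 (0.0507) and leaving out PP2 that of H2-M2 (0.158).

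In pDC-like cells, 1003 from LP and 923 from PP, 10 genes were higher and 34 lower of 8019 (0.549%), 5 and 7 in all without LP1 and LP2, 162 without LP3, 214 without PP3, 22 without PP1, 29 without PP2, and 1 with libraries of a date summed. Ltb had 97.4, 98.1 and 66.9 CPM in LP and 278, 260 and 340 CPM in PP (log2 -1.76 ± 0.18, adjusted p = 0.00328), a call that held without each library in turn and was lost with libraries of a date summed (adjusted p = 0.145). The other genes named by rule, Jun and Nfkbia of the immediate early response (log2 -1.47 ± 0.19 and -1.35 ± 0.20), D13Ertd608e (log2 -1.39 ± 0.17) and the kinase gene Grk6 (log2 1.07 ± 0.17), each lost their call without LP1 (adjusted p of 0.106 to 0.174). Without LP2 the calls of Nfkbia (0.18), D13Ertd608e (0.0858) and Grk6 (0.18) were lost, and without PP1 that of Grk6 (0.0887). D13Ertd608e is also a leading gene of a pDC-like cluster. Of 29 immediate early genes 3 passed, each lower (median log2 -0.98, against -0.01 over all genes).

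ILC3-like cells, 2324 from LP and 2857 from PP, had 189 genes higher and 272 lower of 9241 (4.99%). The numbers were 38 without LP1, 33 without LP2, 154 without PP1, 100 without PP2, 766 without PP3 and 1039 without LP3, and 11 with libraries of a date summed. With the planned clustering 7 genes were called, and 46 under the stricter lineage rule. As clusters 1, 3 and 10 hold most of the class in LP and clusters 4, 5, 9 and 14 in PP, these ratios also follow the clusters. Igfbp7, a secreted binding protein, had 36.3, 25.8 and 67.7 CPM in LP and 239, 221 and 231 CPM in PP (log2 -2.43 ± 0.27, adjusted p = 0.00311), a call that held without each library in turn and was lost with libraries of a date summed (adjusted p = 0.0956). S100a4 had 119, 120 and 426 CPM in LP and 1064, 1107 and 805 CPM in PP (log2 -2.17 ± 0.44, adjusted p = 0.0306), with LP3 nearest to PP. Odc1, the first enzyme of polyamine synthesis, had a log2 ratio of -1.65 ± 0.38 and Gm20186 one of -1.79 ± 0.33. The calls of S100a4, Odc1 and Gm20186 were lost without LP1, LP2 or PP2 (adjusted p of 0.0673 to 0.204), and those of S100a4 and Odc1 without PP1 (0.0739 and 0.0951). Without LP3 the ratios of S100a4, Odc1 and Gm20186 were -3.07, -2.40 and -2.38.

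Of 24 ILC3 and LTi genes 10 passed within ILC3-like cells, each lower in LP (median log2 -0.68). Cd83 had 181, 176 and 395 CPM in LP and 695, 765 and 804 CPM in PP (log2 -1.59 ± 0.28, adjusted p = 0.019, and 0.12, 0.118 and 0.0597 without LP1, LP2 and PP2), and Ccr6 had 82.2, 91.5 and 136 CPM in LP and 216, 228 and 253 CPM in PP (log2 -1.17 ± 0.19, adjusted p = 0.0132, and 0.0883 and 0.109 without LP1 and LP2). Of 17 cell cycle genes 7 passed, each higher (median log2 1.01), with Ube2c at 51 UMIs in LP and 2 in PP, a ratio of 59.3 (15.6 to 503). Ccr9, a small intestine homing receptor, had 280, 269 and 196 CPM in LP and 124, 101 and 116 CPM in PP (log2 1.12 ± 0.16, adjusted p = 0.00923, and 0.0728 and 0.0794 without LP1 and LP2). Of 29 immediate early genes 8 passed, each lower (median log2 -0.24).

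ILC2-like cells, 495 from LP and 335 from PP, had 15 genes higher and 28 lower of 3637 (1.18%), 13 in all with libraries of a date summed, each shared, and 7 (without LP2) to 159 (without LP3) when a library was left out, with 13 without LP1, 17 without PP2, 66 without PP1 and 89 without PP3. Ly6a, the surface protein Sca-1, had 214, 282 and 196 CPM in LP and 10.6, 18.9 and 27.4 CPM in PP (log2 3.54 ± 0.31, adjusted p = 6.23e-05, and 0.00085 with libraries of a date summed). Every LP library lay above every PP library, and in the food allergy libraries the ratio was 1.20 (adjusted p = 0.104). Tnfrsf9 had 15.3, 13.1 and 23.9 CPM in LP and 60.2, 143 and 121 CPM in PP (log2 -2.65 ± 0.42, adjusted p = 0.0103), and Pdcd1, the inhibitory receptor PD-1, had 30.6, 19.7 and 4.79 CPM in LP and 95.6, 67.9 and 143 CPM in PP (log2 -2.41 ± 0.44, adjusted p = 0.0236). Both calls were lost without LP2 (0.118 and 0.145). Gzma, granzyme A, and S100a4 had log2 ratios of -2.36 ± 0.45 and -2.48 ± 0.48, lost without LP1 (0.0972 and 0.0935) or LP2 (0.14 and 0.151), and that of S100a4 also without PP2 (0.0776). With markers and list genes kept out of the clustering the Gzma ratio was -1.06 (adjusted p = 0.373), and without LP3 the S100a4 ratio was -3.22.

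NK or ILC1-like cells, 316 from LP and 1025 from PP, differed at 6 genes higher and 7 lower of 5721 (0.227%), with 603 genes at an unadjusted p under 0.05, 34 genes called by DESeq2, 3 without LP1 or LP2, 7 without PP1, 8 without PP2, 45 without PP3 and 121 without LP3. The list of 20 NK and ILC1 genes had a median log2 ratio of -0.04 within the class. Cd3g, a T cell receptor subunit gene that the rule does not use, had 47.6, 65.5 and 55.3 CPM in LP and 411, 341 and 185 CPM in PP (log2 -2.48 ± 0.34, adjusted p = 0.00782, and 0.145 and 0.0779 without LP1 and LP2). It is a leading gene of cluster 7, with 204 LP and 528 PP cells of this class, so its ratio is a description. Cells with a UMI of Cd3d, Cd3e or Trac made up 1.87 to 2.71% of LP cells and 7.43 to 9.11% of PP cells. The part of T cells without such a UMI in this class and its share was not tested. Cd7 had 618, 625 and 812 CPM in LP and 2392, 1978 and 1622 CPM in PP (log2 -1.54 ± 0.21, adjusted p = 0.00677, and 0.145 and 0.0969 without LP1 and LP2). The MHC class II gene H2-Eb1 and Phf3 had log2 ratios of -2.39 ± 0.32 and -1.52 ± 0.26, also lost without LP1 (0.0785 and 0.273) or LP2 (0.0679 and 0.216), and that of Phf3 without PP1 (0.115) or PP2 (0.065).

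Stromal cell-like cells, 63 from LP and 115 from PP, differed at 164 genes higher and 223 lower of 1799 (21.5%), and at 335 genes with libraries of a date summed, 298 of them shared. Leaving out a library gave 280 (without PP2) to 509 (without PP3) calls. The lymphoid chemokine genes Ccl21a and Ccl19 had 0 UMIs in LP and 22615 and 775 UMIs in PP stromal cell-like cells, at least 4086-fold and 140-fold lower in LP. Clu and Serpina1b were at 0 UMIs in LP too, at least 483-fold and 105-fold lower. Ccl21a, Clu, Col3a1, Adamdec1, Dcn and Rarres2 are leading genes of this cluster, and their ratios are a description of which stroma it holds in each tissue.

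Higher in LP stromal cell-like cells were Mfap5, a microfibril gene, with 76 UMIs in LP and 0 in PP, at least 46.7-fold higher, and Cd34, a sialomucin of fibroblast progenitors, with 454, 1143 and 551 CPM in LP and 36.2, 8.78 and 19.9 CPM in PP (log2 4.81 ± 0.51, adjusted p = 5.05e-05, and 5.61 without PP1). Adh1, which oxidises retinol, had 35 UMIs in LP and 1 in PP, a ratio of 64.6 (10.9 to 2622), and Sema3c, a guidance factor, had 31 and 1, a ratio of 57.2 (9.53 to 2331). Immediate early genes were lower: of 23 immediate early and dissociation genes 22 passed, each lower in LP (median log2 -4.54, also with the 1 gene at 0 UMIs in LP set to its bound, against -0.02 over all genes), and of 10 heat shock genes 7 passed, each lower (median log2 -1.53). Atf3 had 1 UMI in LP and 566 in PP, a ratio of 307 (54.8 to 12140), and Fosb had 0, 22.9 and 30.2 CPM in LP and 2238, 2045 and 557 CPM in PP (log2 -6.06 ± 0.68, adjusted p = 7.81e-05, and -6.84 without LP3). Of 8 chemokine and cytokine ligand genes 6 passed, each lower, with Cxcl10 at 3 UMIs in LP and 487 in PP, a ratio of 88.0 (29.9 to 428). Immediate early and heat shock genes are also known to respond to tissue dissociation, and the part of cell handling in these values was not tested.

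Mast cell-like cells, 50 from LP and 30 from the 2 PP libraries with at least 10 of them, had 1 gene called of 892 (0.112%), Igkc, with 108 genes at an unadjusted p under 0.05 and 7 called by DESeq2. That call was lost without LP3, and 3 genes were called without LP2, 70 without PP2 and 5 without PP3. The fits without PP2 or PP3 leave 1 PP library, which is assumed to vary like the LP libraries. The plasma cell-like class had 76 genes called of 559 (13.6%), 28 without LP1, 43 without LP3, 36 without PP1 and 182 without PP3, but the cluster does not hold the same cells in both tissues. Immunoglobulin genes made up 54.6%, 54.9% and 41.9% of its UMIs in LP1, LP2 and LP3 and 33.0% in PP3, against 0.0574% and 0.0929% in PP1 and PP2, where Paneth cell genes made up 73.2% and 71.1%. In PP1 and PP2 the name is thus not borne out, and the class is not compared between the tissues, either in its share, which was at 1.97%, 2.33% and 1.37% in LP and 0.454%, 0.502% and 0.875% in PP, or in its genes. Lyz1, a lysozyme of Paneth cells, had 1 UMI there in LP and 14942 in PP, and Sdc1, a plasma cell surface proteoglycan, had 88 and 0.

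The food allergy libraries of the same run dates allowed the tissue comparison to be repeated in other mice, 3 LP and 3 PP libraries with 11879 innate cells, again with tissue and date coinciding. There 1257 genes were higher in LP and 934 lower of 11599 tested (18.9%), from 752 in all without the first LP library to 3003 without the third PP library, with 853 without the second LP library and 1244 and 1187 without the first and the second PP library. Of 1038 genes called in the controls that were tested there, 981 had the same direction, 620 of them past the threshold, and 57 had the opposite one. Igha, Igkc and Jchain gave tissue ratios of 4.25, 4.05 and 4.86 (log2) among food allergy mice, with 4.26, 3.88 and 4.77 among control mice. The C1qa ratio was 4.0 in food allergy mice, against 2.97 in control mice, and that of Ube2c was 3.47, against 3.00. Col3a1 and Iglc1, at -0.07 and 0.79 in food allergy (adjusted p = 0.957 and 0.215), were not past the threshold there.

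In 1 fit over the 12 libraries the tissue difference depended on condition for 54 of 12673 genes (0.426%), 44 with a higher and 10 with a lower ratio in food allergy. Each run date holds libraries of both conditions, and with the run date as a block, a fit added after seeing the data, the number was 588 (4.64%), among them each of the 54. The genes named here were chosen after their values were seen, and CPM are scaled over the 12 libraries. Hdc, which makes histamine, had 592, 531 and 279 CPM in LP and 44.1, 49.7 and 36.8 CPM in PP of food allergy mice, against 11.6, 13.4 and 16.9 CPM in LP and 9.89, 17.7 and 11.1 CPM in PP of control mice (difference of log2 ratios 3.30 ± 0.42, adjusted p = 0.00856). Cma1, a mast cell chymase, had 800, 701 and 700 CPM in LP and 74.6, 47.7 and 23.4 CPM in PP of food allergy mice, against 1.66 to 11.1 CPM in LP and 6.77 to 17.4 CPM in PP of control mice (4.46 ± 0.74, adjusted p = 0.034). Mast cell-like cells moved with these genes, at 13.7%, 10.8% and 10.7% of innate cells in LP and 3.06%, 3.11% and 0.880% in PP of food allergy mice, against 0.530 to 1.20% in LP and 0.318 to 0.875% in PP of control mice. Lif, a cytokine of the IL-6 family, had 39.9, 58.6 and 43.6 CPM in LP and 25.7, 29.7 and 24.9 CPM in PP of food allergy mice, against 3.31, 4.74 and 5.16 CPM in LP and 11.3, 12.2 and 10.9 CPM in PP of control mice (2.18 ± 0.25, adjusted p = 0.00723). Lif thus had its higher level in LP in food allergy and in PP in controls. Irf7, a regulator of type I interferon genes, ran the other way, with 75.4, 72.8 and 69.7 CPM in LP and 153, 136 and 99.4 CPM in PP of food allergy mice, against 277, 244 and 236 CPM in LP and 148, 160 and 162 CPM in PP of control mice (-1.52 ± 0.20, adjusted p = 0.00856). The share of pDC-like cells, a class known for Irf7, was 10.1%, 9.49% and 5.54% of innate cells in LP and 19.8%, 18.1% and 12.7% in PP of food allergy mice, against 15.4%, 15.2% and 24.6% in LP and 16.1%, 19.0% and 9.24% in PP of control mice, and their part in the Irf7 difference was not tested.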

How the data were processed

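The deposited file holds UMI counts per gene and cell, per the file's whole-number values, from droplet 10x 3' libraries. The submitters' processing notes name bcl2fastq, Bowtie2, RSEM, Cell Ranger and mm10, without versions or order. Cells in the deposited matrix had at least 501 UMIs and at most 13.4% mitochondrial UMIs, and immunoglobulin and T cell receptor variable segments were not used. Counts of cells with 0 UMIs of the rule's genes were summed per library and tested with edgeR 4.0.16 in R 4.3.3 (TMM, filterByExpr, quasi-likelihood F test, Benjamini-Hochberg, threshold 0.05), with no covariates. The SE of a log2 ratio is its size divided by the square root of F. Sums per class used libraries with at least 10 cells and classes with at least 2 such sums per tissue. Class shares were tested with edgeR on cell numbers. Nothing states that libraries come from separate animals, so p-values measure the spread between libraries, which may be technical. DESeq2 1.42.0 was an alternative.

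Cells of 12 libraries (23571 cells, control and food allergy) were clustered with scanpy 1.11.5 and leidenalg 0.10.2 (2000 variable genes, 30 components, 15 neighbours, resolution 1.0), with the run dates of a tissue aligned, into 25 clusters, of which 23 were named. The tissues were not aligned with each other, and without the alignment the run date of PP3 formed clusters of its own. In all 3 clusterings and 4 naming rules were tried. The clustering and the naming rule used were chosen after the numbers of cells per tissue in the clusters had been seen and before any gene was tested between tissues. Doublets were scored with Scrublet at an expected 0.8% per 1000 cells and kept in the main fits. The rule, the members and the lists of genes were chosen with earlier results of these data known. Genes named for all innate cells are the 12 per direction with the largest log2 ratio among those past the threshold, apart in every library and at 100 CPM or more in the higher tissue, and 4 per direction within a class. Other genes named are, per list, among the 3 largest changes past the threshold in a direction. Genes of the interaction were chosen after their values were seen. Counting intervals are 95% exact binomial, "at least" ratios use 3 UMIs over the tissue, and both cover counting error only. The fits on immune classes only, on the planned clustering, with the other naming rules and of the interaction with the run date as a block were added as alternatives after seeing the data. The edgeR steps were tested on simulated data. Gene coordinates are from GENCODE on mm10. Some of the genes that these rules name are not reported here.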

Additional observations from a re-analysis of the deposited data

Results flagged for a closer look

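For 7 genes the LP over PP difference itself differed between food allergy and control libraries in 1 fit over the 12 libraries (edgeR's quasi-likelihood test of the interaction, Benjamini-Hochberg adjusted, 3 libraries per group), and they were chosen after their values were seen. The log2 ratio was higher in food allergy by 4.46 for Cma1 (adjusted p = 0.034) and by 3.30 for Hdc (adjusted p = 0.00856), mast cell genes described with their levels above. Gchfr, a regulator of GTP cyclohydrolase, differed by 3.41 (adjusted p = 0.00229), with 22.6, 20.1 and 16.6 CPM in LP and 5.28, 5.15 and 2.98 CPM in PP of food allergy mice, against 2.13, 1.72 and 1.88 CPM in LP and 4.51, 4.87 and 4.60 CPM in PP of control mice. Cst7, a cystatin, differed by 2.01 (adjusted p = 0.00229) and Cited4, a transcriptional co-regulator, by 1.55 (adjusted p = 0.00229). For Gchfr, Cst7, Cited4 and Lif, which differed by 2.18 (adjusted p = 0.00723), LP was above PP in food allergy mice and below it in control mice. Irf7 differed by -1.52 (adjusted p = 0.00856), with LP below PP in food allergy mice and above it in control mice. With the run date as a block each of the 7 passed (edgeR adjusted p of 0.000509 to 0.0103). Tissue and run date coincide in both conditions.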

How the results depend on the processing

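In the sums over all innate cells 556 genes were higher in LP and 665 lower. These numbers were 48 and 67 with the libraries of a run date summed, 72 and 152 with the stricter lineage rule, 291 and 314 with all 10 PP control libraries, 338 and 373 with these summed into 5 dates, and 202 to 849 and 235 to 915 when 1 library was left out. With immune classes only, a fit added after seeing the data, 386 genes were lower. DESeq2, no TMM, no filter, 1000 UMIs per cell and removal of doublets kept both numbers within 1.5 times.

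Of 15 classes 9 passed for their share, 7 to 11 without a library, 4 with the planned clustering, and by the exact permutation test 0, which cannot pass at this size, against 9 by edgeR. Directions turned for the NK or ILC1 share under the naming rules of other first matches and of the median cluster (0.38 each), for the cDC1 share (-0.94) and the plasma cell share (-2.46) under the strict rule, and for unnamed cells with the planned clustering (1.48), other first matches (1.20) and the pooled rest (1.06). The strict rule counts Jchain, so it removes plasma cells by construction, and it leaves 84 to 226 cells in each LP library and 347 to 686 in each PP library. Among single genes Il22ra2 turned with 5 PP date sums (-0.08) and all 10 PP libraries (-0.32), and Naaa under the strict rule (-0.45). The cause of the other changes was not tested.

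Within classes 2167 genes were called in all, 1028 to 3603 without a library, 793 with date sums, 1019 in 10 classes of the planned clustering, 4572 without a filter and 123 in the 3 classes the strict rule left. Date sums gave 13 for ILC2-like, 11 for ILC3-like, 3 for NK or ILC1-like, 43 for cDC1-like, 259 for cDC2-like, 84 for macrophage-like, 2 for mature DC-like, 1 for pDC-like and 41 for plasma cell-like cells. No filter gave 222 for ILC2-like, 174 for NK or ILC1-like, 343 for cDC1-like, 1418 for cDC2-like, 275 for macrophage-like, 37 for mast cell-like, 88 for mature DC-like, 415 for pDC-like, 420 for plasma cell-like and 614 for stromal cell-like cells. DESeq2 gave 67 for ILC2-like, 34 for NK or ILC1-like, 7 for mast cell-like, 40 for mature DC-like and 94 for pDC-like cells. The strict rule gave 46 for ILC3-like, 69 for cDC2-like and 8 for pDC-like cells. The planned clustering gave 7 for ILC3-like and 3 for mast cell-like cells, cells of 1000 UMIs gave 2 for mast cell-like cells, and clusters without list genes gave 12 for mature DC-like cells. Leaving out a library gave 7 to 159 for ILC2-like, 33 to 1039 for ILC3-like, 3 to 121 for NK or ILC1-like, 92 to 294 for cDC1-like, 390 to 1373 for cDC2-like, 53 to 195 for macrophage-like, 0 to 70 for mast cell-like, 1 to 65 for mature DC-like, 5 to 214 for pDC-like, 28 to 182 for plasma cell-like and 280 to 509 for stromal cell-like cells. The food allergy count was 752 to 3003 without a library, and the interaction count, 54, was 588 with the run date as a block.

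The labels number libraries 1 and 2 in both tissues, which gives 2 pairs and does not establish pairing. With the replicate block on these 4 libraries 2188 genes were higher and 2361 lower, against 2067 and 2235 in the same libraries without it. Within 9 classes 8171 were called with the block: 170 in ILC2-like, 2818 in ILC3-like, 274 in NK or ILC1-like, 607 in cDC1-like, 1967 in cDC2-like, 385 in macrophage-like, 1313 in pDC-like, 202 in plasma cell-like and 435 in stromal cell-like cells. The correlation of same-numbered deviations was -0.0192 across 12071 genes. Ratios that rest on 1 to 3 UMIs in a tissue are limited by counting, as their intervals show.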
